A study of Mus musculus with 17 samples.

Results

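Stem cells sorted from the epidermis of mice with floxed Pelo alleles, labelled Pelo -/-, were compared between the Lgr6 and the Lgr5 population of the hair follicle. The comparison rests on the 3 libraries labelled Pelo -/- Lgr6 and the 3 labelled Pelo -/- Lgr5, chosen by their titles, which are 6 of the 17 libraries of the series. It covers all 30405 genes that passed a filter on low counts, and a positive log2 fold change means a higher level in Lgr6 cells. The question was which differences in identity between these populations stand when Pelo is deleted. Pelo -/- Lgr6 cells came from Pelo fl/fl mice with an EGFP-CreERT2 cassette at Lgr6, and Pelo -/- Lgr5 cells from Pelo fl/fl mice with that cassette at Lgr5. The matching WT Lgr6 and WT Lgr5 groups, of 3 libraries each, came from Pelo fl/+ mice with the same cassettes. These mice had 1 floxed and 1 normal allele. All groups were C57BL/6 mice aged 3 months that had received 4-OHT (4-hydroxytamoxifen), which activates the Cre recombinase, and each library was made from 1000 GFP-positive cells sorted by flow cytometry, with the full-length method of Picelli and colleagues. Both the reporter and the Cre are driven from the locus that defines the population, so the sort and the deletion follow the activity of Lgr6 or Lgr5. The floxed allele of WT cells was exposed to the same Cre, so WT cells may have lost 1 allele, which was not measured. Whether replicates are separate animals is not stated in the labels. If they are not, the p-values measure the spread between libraries alone, which may be technical. Unless WT is written, Lgr6 cells and Lgr5 cells below are the Pelo -/- ones.

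Lgr5 and Lgr6 are related receptors for R-spondins, secreted proteins that strengthen Wnt signalling. In resting mouse follicles Lgr5 marks stem cells of the lower bulge and hair germ, which rebuild the follicle in each hair cycle, and Lgr6 marks cells of the isthmus above the bulge that contribute to the upper follicle, the sebaceous gland and the interfollicular epidermis. Pelo encodes the mammalian Pelota protein, which together with the GTPase Hbs1l frees ribosomes that have stalled on a messenger RNA.

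Total counts were 18338235 to 21721255 in the Lgr6 libraries and 10501324 to 17219054 in the Lgr5 libraries. Scaling factors of the TMM method, which correct library sizes for composition, were 0.804 to 0.873 in Lgr6 cells and 0.990, 1.35 and 1.59 in replicates 1, 2 and 3 of Lgr5 cells. Replicate 1 of Lgr5 cells stood apart from the other two: predicted genes of satellite-like sequence took 1.72% of its counts, against 6.45% and 9.42%, and genes of the mitochondrial genome took 15.3%, against 7.18% and 3.82%. In the Lgr6 libraries these shares were 0.455% to 1.01% and 5.45% to 6.56%. Across genes, which are not independent replicates, Spearman correlations were 0.870 to 0.874 within Lgr6 cells, 0.820 to 0.825 within Lgr5 cells and 0.773 to 0.814 between the populations. The part of these library differences in the results below was not tested, and counts that rest on replicate 1 of Lgr5 cells are given with and without it.

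The start regions of 4 genes are shown because their transcripts differ strongly and stand for the contrast of the populations. Guca2a had the largest fold in favour of Lgr6 cells, Krt10 is a keratin of differentiating epidermis, Lhx2 is a transcription factor of the bulge, and Fam13a was among the genes with the largest folds in favour of Lgr5 cells. Each window runs from 250 bases before to 50 bases after the start of the gene in RefSeq, on GRCm38.p6 and 5′ to 3′ on the strand of the gene. The windows lie at chr4:119637482-119637781 on the plus strand for Guca2a, chr11:99389315-99389614 on the minus strand for Krt10, chr2:38339031-38339330 on the plus strand for Lhx2 and chr6:59024453-59024752 on the minus strand for Fam13a. Capitals mark matches to motifs that were searched on both strands, namely TATAAA for the TATA box, TGANTCA for AP-1, GGGCGG for the GC box, TCAAAG for the core of TCF/LEF sites and AGATAA for factors of the GATA family. The letters of no motif lie inside those of another on either strand.
Guca2a: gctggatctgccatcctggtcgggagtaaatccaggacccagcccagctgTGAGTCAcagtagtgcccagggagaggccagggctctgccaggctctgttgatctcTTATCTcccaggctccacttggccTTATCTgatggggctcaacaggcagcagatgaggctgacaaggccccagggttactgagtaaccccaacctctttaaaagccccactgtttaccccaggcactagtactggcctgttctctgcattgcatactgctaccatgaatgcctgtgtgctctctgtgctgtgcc
Krt10: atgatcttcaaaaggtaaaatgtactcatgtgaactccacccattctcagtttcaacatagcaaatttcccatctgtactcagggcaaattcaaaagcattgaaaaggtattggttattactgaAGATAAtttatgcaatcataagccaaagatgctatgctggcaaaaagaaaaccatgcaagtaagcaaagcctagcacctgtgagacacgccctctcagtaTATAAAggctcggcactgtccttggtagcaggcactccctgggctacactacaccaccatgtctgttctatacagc
Lhx2: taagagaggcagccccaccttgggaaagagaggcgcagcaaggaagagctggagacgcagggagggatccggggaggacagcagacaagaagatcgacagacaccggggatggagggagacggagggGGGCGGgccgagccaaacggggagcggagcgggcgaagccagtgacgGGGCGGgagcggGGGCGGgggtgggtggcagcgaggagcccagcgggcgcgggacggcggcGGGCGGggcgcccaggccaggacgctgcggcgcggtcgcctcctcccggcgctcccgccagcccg
Fam13a: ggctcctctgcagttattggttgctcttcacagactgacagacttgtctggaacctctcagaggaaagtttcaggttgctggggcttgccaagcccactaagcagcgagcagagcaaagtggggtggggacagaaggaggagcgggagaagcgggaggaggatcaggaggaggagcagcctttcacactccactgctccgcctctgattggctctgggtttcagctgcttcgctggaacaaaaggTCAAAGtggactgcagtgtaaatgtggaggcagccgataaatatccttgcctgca
In these letters Guca2a holds 1 AP-1 and 2 GATA matches, Krt10 holds 1 TATA box and 1 GATA match, Lhx2 holds 4 GC boxes and Fam13a holds 1 TCF/LEF core. A GC box was found in 63.6% of the 1334 windows of genes called higher in Lgr6 cells and 59.7% of the 511 windows of genes called lower, against 52.2% of the windows of all 14928 protein-coding genes tested that had one. A TATA box was found in 10.3% of windows of genes called higher, 10.2% of those called lower and 10.5% of all windows. In the same order, the AP-1 motif was in 6.90%, 5.87% and 6.59%, the TCF/LEF core in 12.3%, 11.4% and 14%, and the GATA motif in 6.00%, 7.83% and 8.37%. A match is a run of letters and not a measured site, and these shares are descriptions. Of the 223 genes that the naming rule reached, 156 had a window.

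Levels are given in CPM, the share of counts after scaling each library to a common total, with library sizes scaled by TMM, in the order of replicates 1, 2 and 3. Means carry the SD (n = 3 in each group), log2 fold changes carry the SE, and a gene is called at an edgeR quasi-likelihood p under 0.05 after Benjamini-Hochberg adjustment over all genes tested. Pelo itself was read at 3.1, 4.94 and 4.2 CPM in Lgr6 cells, against 11.8, 23.6 and 15.1 CPM in Lgr5 cells. The groups did not overlap and the difference did not pass the threshold (log2 fold change -2.04 ± 0.77, edgeR adjusted p = 0.0981). The WT groups had 4.12, 5.39 and 2.02 CPM in WT Lgr6 cells, against 17.4, 5.9 and 17.3 CPM in WT Lgr5 cells. No label gives which part of Pelo is floxed, and counts over the whole gene therefore leave the extent of the deletion unmeasured. Pelo lies on chromosome 13 inside Itga1 on the same strand, and Itga1, an integrin subunit, had a log2 fold change of -3.83 (edgeR adjusted p = 0.0989).

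Lgr5 and Lgr6 define the sort, so their own levels check the labels. Lgr5 stood at 0.468, 1.88 and 0.0531 CPM in Lgr6 cells, against 549.8, 467 and 476 CPM in Lgr5 cells. All 3 Lgr6 libraries were near 0 and the groups were far apart (log2 fold change -9.30 ± 1.62, edgeR adjusted p = 0.00229). Lgr6 stood at 180.1, 120.4 and 158 CPM in Lgr6 cells, against 108, 42 and 81.9 CPM in Lgr5 cells. Its groups did not overlap, yet the difference missed the threshold (log2 fold change 0.98 ± 0.49, edgeR adjusted p = 0.22). Lrig1, a brake on growth factor receptors and a marker of the upper follicle, stood at 39.3, 58.8 and 48 CPM in Lgr6 cells, against 12, 16.7 and 10.1 CPM in Lgr5 cells. It was called higher in Lgr6 cells (log2 fold change 1.91 ± 0.50, edgeR adjusted p = 0.0142), and the call was lost without replicate 2 of Lgr6 cells or without replicate 3 of Lgr5 cells, with an edgeR adjusted p of up to 0.0663.

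Of the 30405 genes tested, 3026 were called at an edgeR adjusted p under 0.05, or 9.95%. Called genes were higher in Lgr6 cells in 2198 cases (7.23% of genes tested) and lower in 828 (2.72%). Changes of over 8-fold were called for 723 genes that were higher and for 538 that were lower. Protein-coding genes made up 2360 of the calls, 1694 higher and 666 lower. The groups did not overlap for 2943 of the called genes, and they did not overlap for 32.8% of all genes tested. The median log2 fold change over all genes was -0.61, and fold changes are to be read against it. It was -0.77 with size factors of DESeq2 in place of TMM, -0.10 in a fit of the 6 libraries alone and -0.05 with a minimum mean of 5 CPM, where the calls were 1582 higher and 1540 lower. Higher genes were thus 72.6% of the calls as reported and 50.7% with that minimum. DESeq2 called 2653 higher and 2522 lower, limma-voom with library weights called 3253 higher and 1954 lower, and the fit of the 6 libraries alone called 1785 higher and 1079 lower. Where edgeR called 0 members of a list in a direction, DESeq2 called at most 2. Without replicate 1, 2 or 3 of Lgr6 cells 439, 541 or 410 genes were called lower, while without replicate 1 of Lgr5 cells the calls were 2387 higher and 875 lower.

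Among the 12 protein-coding genes with the largest folds in favour of Lgr6 cells, Guca2a, which encodes the peptide guanylin, stood at 462, 298 and 385 CPM in Lgr6 cells, against 0, 0.0709 and 0.107 CPM in Lgr5 cells (log2 fold change 12.47 ± 1.29, edgeR adjusted p = 4.05e-06). Its 3 counts in Lgr5 cells give a ratio of pooled rates of 6360, with an exact 95% interval of 2180 to 30900 for counting error alone. Ly6d, a membrane protein of keratinocytes that belongs to the Ly6 family, stood at 3749, 2806 and 4851 CPM in Lgr6 cells, against 20.2, 0.78 and 9.55 CPM in Lgr5 cells (log2 fold change 8.54 ± 0.85, edgeR adjusted p = 1.44e-06). Its Lgr5 libraries were spread widely and lay far under the Lgr6 libraries. Il1r2, the decoy receptor of interleukin 1, stood at 488, 565 and 321 CPM in Lgr6 cells, against 0.528, 0.355 and 1.88 CPM in Lgr5 cells (log2 fold change 8.92 ± 0.97, edgeR adjusted p = 5.40e-06). Pyy, which encodes the gut hormone peptide YY, had a log2 fold change of 9.55 (edgeR adjusted p = 5.66e-08), with a wide range of 116 to 522 CPM in Lgr6 cells. Ptgs1, the cyclooxygenase made by resting tissues, stood at 130.5, 81.6 and 197 CPM in Lgr6 cells, against 0.528, 0.567 and 0.751 CPM in Lgr5 cells (log2 fold change 7.77 ± 0.67, edgeR adjusted p = 5.66e-08). Elovl4, which elongates fatty acids of the skin barrier, had 7.81 and Mt4, a metallothionein of stratified epithelia, had 7.63 (edgeR adjusted p = 9.17e-06 and 1.56e-05). The others at this end were Ly6a (9.62), Skint7 (8.46), the interleukin 20 receptor subunit Il20ra (7.89), Bmp3 (7.64) and Oas1f (7.59).

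Among the 12 with the largest folds in favour of Lgr5 cells, Cd34, a surface marker of mouse bulge cells, stood at 5.5, 0.937 and 0.159 CPM in Lgr6 cells, against 344, 329 and 366 CPM in Lgr5 cells (log2 fold change -7.30 ± 1.01, edgeR adjusted p = 9.45e-05). Hmcn1, a large matrix protein, stood at 2.69, 6.06 and 4.57 CPM in Lgr6 cells, against 401, 573 and 448 CPM in Lgr5 cells (log2 fold change -6.74 ± 0.55, edgeR adjusted p = 4.36e-08). Slc38a4, an amino acid transporter, stood at 0.234, 0.562 and 0.266 CPM in Lgr6 cells, against 130.3, 154 and 173 CPM in Lgr5 cells (log2 fold change -8.73 ± 1.11, edgeR adjusted p = 2.89e-05). The groups were far apart for these 3 genes, with every Lgr6 library at a low level. Fam13a stood at 0.351, 0.75 and 1.06 CPM in Lgr6 cells, against 62.3, 89.5 and 219 CPM in Lgr5 cells (log2 fold change -7.40 ± 1.17, edgeR adjusted p = 0.000284). Krt24, a keratin of the bulge, stood at 0.0585, 0.75 and 3.29 CPM in Lgr6 cells, against 191, 119.9 and 76.5 CPM in Lgr5 cells (log2 fold change -6.54 ± 0.86, edgeR adjusted p = 3.25e-05). Angptl7, a secreted angiopoietin-like factor, had -6.18 and Lrrn3, a neuronal leucine-rich repeat protein, had -7.35 (edgeR adjusted p = 0.00218 and 7.48e-06). Pdzrn4 (-6.73), Tmtc1 (-6.21), Fam171b (-6.15), the collagen chain Col8a2 (-5.96) and Lgr5 itself (-9.30) completed this end. Lgr5 had the largest fold of the 12, and its separation follows from the sort. Each gene named at either end kept its call in every alternative and without any single library. The rule for both ends required a mean log2 CPM of at least 3 and groups that do not overlap. The groups are therefore apart for all of these genes in the plot of the largest folds.

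**Figure D1:**
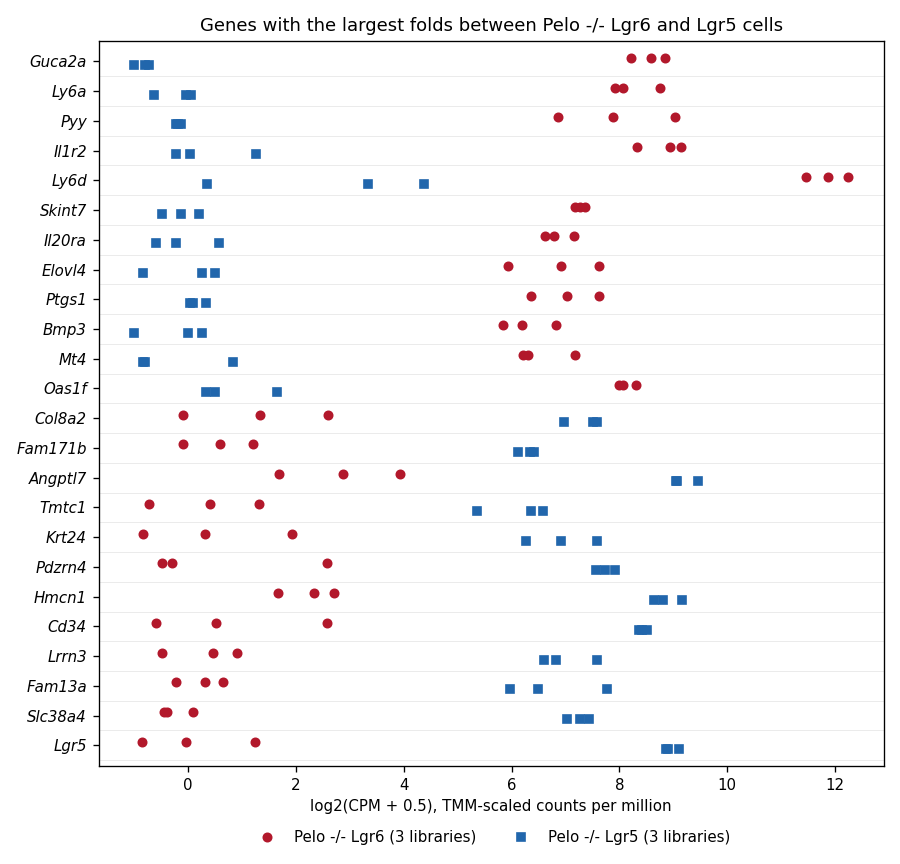
Level of the 12 genes with the largest folds in each direction, as log2(CPM + 0.5) on the x axis with 1 point per library, Pelo -/- Lgr6 as circles drawn above Pelo -/- Lgr5 as squares. The upper 12 genes are higher in all 3 Lgr6 libraries and the lower 12, which include Lgr5 of the sort, are lower in all 3. No pair of groups overlaps, which the rule for these genes required.

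Most markers of the bulge and hair germ fell in Lgr6 cells. Of 40 markers tested, 31 were called lower and 0 higher, with a median log2 fold change of -2.68 against -0.61 over all genes. Lhx2, a transcription factor that keeps bulge cells in their state, stood at 35.8, 9.81 and 22.7 CPM in Lgr6 cells, against 1070.0, 542 and 528 CPM in Lgr5 cells (log2 fold change -4.97 ± 0.60, edgeR adjusted p = 6.47e-06). Sox9, a transcription factor of bulge and outer root sheath, stood at 109, 62.6 and 101 CPM in Lgr6 cells, against 997, 1100.0 and 568 CPM in Lgr5 cells (log2 fold change -3.29 ± 0.42, edgeR adjusted p = 7.85e-06). Grem1, an antagonist of bone morphogenetic proteins (BMPs), stood at 28.6, 3.37 and 3.4 CPM in Lgr6 cells, against 702, 534 and 393 CPM in Lgr5 cells (log2 fold change -5.53 ± 0.84, edgeR adjusted p = 0.000187). In all 3 genes every Lgr6 library lay under every Lgr5 library. Groups that do not overlap were the rule among called genes, at 2943 of 3026. Ptn, which encodes the growth factor pleiotrophin, averaged 183 ± 28.8 CPM in Lgr6 cells and 2497 ± 634 CPM in Lgr5 cells (log2 fold change -3.77 ± 0.37, edgeR adjusted p = 2.76e-07). Ccn2, a matrix-associated target of YAP and TGF-beta signalling, averaged 72.8 ± 22.6 CPM in Lgr6 cells and 1129 ± 337 CPM in Lgr5 cells (log2 fold change -3.95 ± 0.41, edgeR adjusted p = 5.57e-07). Lgr5 is itself on this list and was used for the sort. As with all lists here, the members were chosen with earlier results of these data known, so the count is a description. Krt15, a keratin often used for the bulge, was no named gene of the rule and is given because of that use: it averaged 7753 ± 1659 CPM in Lgr6 cells and 5585 ± 1422 CPM in Lgr5 cells and was not called (edgeR adjusted p = 0.387).

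Of 22 markers of the upper follicle and interfollicular epidermis 13 were called higher in Lgr6 cells and 1 lower, with a median of 3.13. Krt14, a keratin of basal cells, stood at 9567, 8955 and 10240.0 CPM in Lgr6 cells, against 836, 502 and 442 CPM in Lgr5 cells (log2 fold change 4.01 ± 0.46, edgeR adjusted p = 2.21e-06). Its partner Krt5 stood at 8692, 8066 and 7481 CPM in Lgr6 cells, against 3376, 1712 and 1430.0 CPM in Lgr5 cells (log2 fold change 1.90 ± 0.39, edgeR adjusted p = 0.00191). The groups did not overlap for either keratin, as for most called genes. Ly6a, the surface antigen Sca-1 that mouse keratinocytes carry above the bulge, stood at 430.4, 269.5 and 242 CPM in Lgr6 cells, against 0.469, 0.142 and 0.537 CPM in Lgr5 cells (log2 fold change 9.62 ± 0.63, edgeR adjusted p = 8.84e-10). Calml3, a calmodulin-like protein, was the member called lower, with 27.7, 19 and 33.6 CPM in Lgr6 cells, against 208, 123 and 109 CPM in Lgr5 cells (log2 fold change -2.45 ± 0.43, edgeR adjusted p = 0.000407). Near-identical copies exist in the Ly6 and keratin families, and how shared reads were counted is not given, so single values there are uncertain.

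Of 40 genes of the differentiating layers 13 were called higher in Lgr6 cells and 0 lower, with a median of 1.46. Krt10 stood at 1794, 1605 and 3249 CPM in Lgr6 cells, against 24.7, 42.6 and 86.5 CPM in Lgr5 cells (log2 fold change 5.43 ± 0.65, edgeR adjusted p = 6.33e-06), and its partner Krt1 at 1296, 780.1 and 1845 CPM in Lgr6 cells, against 2.17, 14.9 and 18.7 CPM in Lgr5 cells (log2 fold change 6.78 ± 0.85, edgeR adjusted p = 2.51e-05). Casp14, a protease of cornifying cells, stood at 73.2, 57.5 and 93.3 CPM in Lgr6 cells, against 0.235, 0.355 and 1.13 CPM in Lgr5 cells (log2 fold change 6.99 ± 0.80, edgeR adjusted p = 3.28e-06). All 3 genes were detected in Lgr5 cells at low levels and separated the groups fully, as most called genes did. Desmosome genes, whose products join keratinocytes, were called higher in 9 of 17 cases and lower in 0 (median 1.24). Pkp1, a plakophilin, averaged 1070.0 ± 64.3 CPM in Lgr6 cells and 126 ± 29.4 CPM in Lgr5 cells (log2 fold change 3.09 ± 0.36, edgeR adjusted p = 2.59e-06), and Jup, which encodes plakoglobin, averaged 1236 ± 79 CPM in Lgr6 cells and 112 ± 73.2 CPM in Lgr5 cells (log2 fold change 3.46 ± 0.51, edgeR adjusted p = 5.92e-05). Across the keratin genes 10 of 35 were called higher and 2 lower, or 1 lower without any single Lgr6 library or replicate 3 of Lgr5 cells. Their median was -0.27, and it turned positive with a minimum mean of 5 CPM (3.51), in the fit of the 6 libraries alone (0.87) and without replicate 2 of Lgr5 cells. Krt80 was the member outside the layers above with the smallest p, at 20.4, 28.2 and 34.7 CPM in Lgr6 cells, against 0.411, 0.851 and 1.02 CPM in Lgr5 cells (log2 fold change 5.18 ± 0.69, edgeR adjusted p = 1.52e-05). In bulk samples fewer cells of a type and less RNA per cell cannot be told apart, which holds for all of these markers.

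Transcription factors of follicle and epidermis divided between the populations, with 12 of 57 called higher, 16 lower and a median of -0.99. Gata3, a regulator of epidermal barrier and inner root sheath, stood at 924, 1046 and 1050.0 CPM in Lgr6 cells, against 169, 162 and 286 CPM in Lgr5 cells (log2 fold change 2.29 ± 0.37, edgeR adjusted p = 0.000139). Runx1, a regulator of bulge activation, stood at 8.78, 6.62 and 14.2 CPM in Lgr6 cells, against 155, 149 and 129.5 CPM in Lgr5 cells (log2 fold change -3.87 ± 0.54, edgeR adjusted p = 2.55e-05). Foxc1, which keeps bulge cells quiescent, averaged 46.4 ± 13.1 CPM in Lgr6 cells and 227 ± 41.2 CPM in Lgr5 cells (log2 fold change -2.29 ± 0.37, edgeR adjusted p = 0.000157). The other factors higher in Lgr6 cells that were also called in WT cells included Klf5 (4.36), Ovol1 (4.30), Grhl3 (3.51), Cebpa (3.42) and Tfap2c (2.69). Ovol1 and Grhl3 act in keratinocyte differentiation, and Cebpa in differentiation of keratinocytes and sebocytes. Factors lower in both genotypes included Tbx1 (-5.02), the Iroquois genes Irx1 (-3.39), Irx2 (-1.85) and Irx5 (-1.85), Bnc1 (-2.30) and Nfib (-1.46), which restrains melanocyte stem cells from within the follicle. Of the 28 factors called in Pelo -/- cells, 21 were called the same way in WT cells.

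Genes of the Wnt pathway were counted by role. Ligands and R-spondins were called higher in 8 of 22 cases and lower in 0. Their median was 0.80, or 0.33 without replicate 2 of Lgr6 cells, 0.50 and 0.40 with limma-voom without and with library weights, 2.04 in the fit of the 6 libraries alone and 3.92 with a minimum mean of 5 CPM. Wnt3 stood at 110.2, 140.2 and 170.0 CPM in Lgr6 cells, against 2.11, 4.4 and 1.18 CPM in Lgr5 cells (log2 fold change 5.78 ± 0.55, edgeR adjusted p = 2.04e-07), and Wnt10a at 113, 148 and 91 CPM in Lgr6 cells, against 1.7, 1.28 and 11.3 CPM in Lgr5 cells (log2 fold change 4.62 ± 0.69, edgeR adjusted p = 8.82e-05). Wnt3a and Wnt5a had 4.46 and 4.19 (edgeR adjusted p = 5.01e-05 and 2.68e-05). Among receptors 8 of 18 were called lower, Lgr5 of the sort included, and 1 higher (median -1.87), with 5 called lower without replicate 3 of Lgr6 cells and 2 called higher without replicate 3 of Lgr5 cells. Fzd7 stood at 36.4, 25 and 23.1 CPM in Lgr6 cells, against 378, 405 and 178 CPM in Lgr5 cells (log2 fold change -3.51 ± 0.47, edgeR adjusted p = 1.56e-05), Fzd1 and Fzd2 had -3.39 and -3.97, and Lgr4, a further R-spondin receptor, had -1.80. Fzd10 was the receptor called higher, at 14.6, 17.7 and 19.1 CPM in Lgr6 cells, against 0.469, 1.49 and 0.805 CPM in Lgr5 cells (log2 fold change 4.21 ± 0.77, edgeR adjusted p = 0.000614). Of 18 antagonists 2 were called higher and 3 lower. Apcdd1, a membrane inhibitor of Wnt signalling, had 6.75 and Dkk3, a secreted Dickkopf-family protein, had -3.84 (edgeR adjusted p = 0.000173 and 1.13e-05). Of 16 effectors and targets 2 were called higher and 3 lower, and 1 was called higher without any single library other than replicate 2 of Lgr6 cells. The member lost there was Gsk3b (1.21), a kinase that marks beta-catenin for breakdown, and the other was its scaffold Axin1 (2.76). Lef1, a nuclear effector of beta-catenin that is abundant in the hair germ, stood at 0.527, 0.437 and 0.0531 CPM in Lgr6 cells, against 36.9, 75.9 and 17.2 CPM in Lgr5 cells (log2 fold change -6.98 ± 1.36, edgeR adjusted p = 0.00187). Tcf7l2, a related effector, averaged 57.9 ± 4.54 CPM in Lgr6 cells and 244 ± 25.8 CPM in Lgr5 cells (log2 fold change -2.07 ± 0.35, edgeR adjusted p = 0.000276).

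BMP and TGF-beta genes were called higher in 4 of 44 cases and lower in 11 (median -0.69, or -1.09 without replicate 1 of Lgr6 cells and -0.46 without replicate 3 of Lgr5 cells). A pair of ligands was far higher in Lgr6 cells: Bmp4 stood at 50.6, 55.7 and 45.1 CPM in Lgr6 cells, against 0, 0 and 0.698 CPM in Lgr5 cells (log2 fold change 7.63 ± 0.90, edgeR adjusted p = 4.05e-06), and Bmp3, which opposes other BMPs, at 113, 56.6 and 73.2 CPM in Lgr6 cells, against 0, 0.496 and 0.698 CPM in Lgr5 cells (log2 fold change 7.64 ± 0.96, edgeR adjusted p = 1.89e-05). The BMP antagonist noggin, encoded by Nog, stood at 0.0585, 0.5 and 0.0531 CPM in Lgr6 cells, against 96.8, 39.4 and 37.7 CPM in Lgr5 cells (log2 fold change -8.14 ± 1.32, edgeR adjusted p = 0.000345). The BMP targets Id2 and Id4 were lower as well, at -2.62 and -2.83 (edgeR adjusted p = 0.000102 and 0.00016). The antagonists Nog, Grem1 and Fst (-1.65) were thus all called lower, while ligands were split: Bmp4, Bmp3 and Bmp7 (1.55) were higher, and Inhbb (-6.17) and Gdf11 (-5.28), chosen after their values were seen, were lower. The call of Bmp7 was lost without any single library other than replicate 1 of Lgr5 cells (edgeR adjusted p up to 0.128).

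Hedgehog genes were called lower in 8 of 19 cases and higher in 0, with a median of -1.88. Gas1, a co-receptor of Hedgehog ligands, stood at 104, 67.4 and 62.7 CPM in Lgr6 cells, against 499, 533 and 435 CPM in Lgr5 cells (log2 fold change -2.65 ± 0.36, edgeR adjusted p = 2.22e-05). Ptch1, both receptor and target of the pathway, stood at 17.1, 30.5 and 26 CPM in Lgr6 cells, against 519, 248 and 216 CPM in Lgr5 cells (log2 fold change -3.74 ± 0.63, edgeR adjusted p = 0.000398). The co-receptors Boc and Cdon had -2.69 and -2.36 (edgeR adjusted p = 0.000262 and 0.000676). The groups of all 4 genes were apart, as for most called genes. The count was 4 without replicate 2 and 5 without replicate 3 of Lgr6 cells.

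In the Notch pathway 2 of 21 genes were called higher and 3 lower, or 23.8%, against 9.95% over all genes tested. The ligands divided: Dll1 stood at 67.6, 78.2 and 87.6 CPM in Lgr6 cells, against 20.2, 10.3 and 12.7 CPM in Lgr5 cells (log2 fold change 2.44 ± 0.46, edgeR adjusted p = 0.000884), and Jag1 averaged 97.6 ± 27.5 CPM in Lgr6 cells and 615 ± 112 CPM in Lgr5 cells (log2 fold change -2.65 ± 0.34, edgeR adjusted p = 1.02e-05). Hey1, a target of the pathway, had -5.63 (edgeR adjusted p = 0.00496). Among EGF receptor family genes and ligands 4 of 21 were called higher and 2 lower, or 28.6%, with Erbb3 at 1.66 (edgeR adjusted p = 0.00271). Without replicate 3 of Lgr5 cells 2 of these were called higher, and 0 or 1 was called lower without any single library other than replicate 1 of Lgr5 cells. Of 25 FGF and IGF genes 2 were called higher and 4 lower. Igfbp3, which binds insulin-like growth factors, stood at 651, 829 and 594 CPM in Lgr6 cells, against 44.1, 33.5 and 22.9 CPM in Lgr5 cells (log2 fold change 4.37 ± 0.43, edgeR adjusted p = 2.76e-07). Fgfr1, a receptor of fibroblast growth factors, stood at 14.7, 17.6 and 26.7 CPM in Lgr6 cells, against 424, 276 and 454 CPM in Lgr5 cells (log2 fold change -4.29 ± 0.47, edgeR adjusted p = 1.44e-06). The ligands Fgf18, which holds bulge cells in rest in the mouse, and Fgf1 had -8.14 and -4.20 (edgeR adjusted p = 0.00631 and 0.00134), and the call of Fgf18 was lost with no filter on low counts.

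Genes of matrix and adhesion differed in both directions. Of 22 integrin subunits 2 were called higher and 1 lower, or 13.6%, near the 9.95% over all genes tested. Itga6, of the hemidesmosome, averaged 942 ± 185 CPM in Lgr6 cells and 302 ± 29.7 CPM in Lgr5 cells (log2 fold change 1.64 ± 0.33, edgeR adjusted p = 0.00163), and Itgb8, whose integrin activates TGF-beta, averaged 11.4 ± 5.01 CPM in Lgr6 cells and 138 ± 5.09 CPM in Lgr5 cells (log2 fold change -3.60 ± 0.44, edgeR adjusted p = 4.38e-06). Itgb4, the partner of Itga6, was called higher at 1.19 and lost the call without any single library other than replicate 2 of Lgr6 cells (edgeR adjusted p up to 0.0824). Basement membrane and hemidesmosome genes were called higher in 3 of 35 cases and lower in 9, or in 5 without replicate 3 of Lgr6 cells, and 1 was called higher without replicate 1 or 2 of either population. Npnt, which encodes nephronectin of the bulge basement membrane, stood at 24.8, 29.7 and 23.5 CPM in Lgr6 cells, against 138, 123 and 106 CPM in Lgr5 cells (log2 fold change -2.24 ± 0.44, edgeR adjusted p = 0.00123). Tnc, the matrix protein tenascin C, stood at 9.6, 6.56 and 8.12 CPM in Lgr6 cells, against 120.4, 144 and 59.7 CPM in Lgr5 cells (log2 fold change -3.73 ± 0.68, edgeR adjusted p = 0.000637). Plec, the hemidesmosome linker plectin, averaged 113 ± 22.6 CPM in Lgr6 cells and 35.7 ± 6.1 CPM in Lgr5 cells (log2 fold change 1.67 ± 0.40, edgeR adjusted p = 0.00633). Other collagens were called higher in 2 of 20 cases and lower in 8 (median -2.11), with Col23a1 at 4.84, Col8a2 at -5.96 and Col1a2 at -5.82. Without replicate 1 of Lgr6 cells or replicate 2 of Lgr5 cells 1 collagen was called higher. Col1a2 is also a fibroblast marker, and that list is given below. Axon guidance and synaptic adhesion genes were called higher in 5 of 48 cases and lower in 10 (median -1.36), with 3 called higher without replicate 1 of Lgr6 cells. The guidance ligand Sema3d stood at 269, 139 and 379 CPM in Lgr6 cells, against 4.93, 6.52 and 2.63 CPM in Lgr5 cells (log2 fold change 5.81 ± 0.68, edgeR adjusted p = 5.59e-06), while Flrt3 averaged 62.4 ± 18.7 CPM in Lgr6 cells and 492 ± 118 CPM in Lgr5 cells (log2 fold change -2.98 ± 0.41, edgeR adjusted p = 2.10e-05) and the semaphorin receptor Plxna2 averaged 30.6 ± 1.65 CPM in Lgr6 cells and 209 ± 60.6 CPM in Lgr5 cells (log2 fold change -2.77 ± 0.41, edgeR adjusted p = 6.13e-05).

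**Figure D2:**
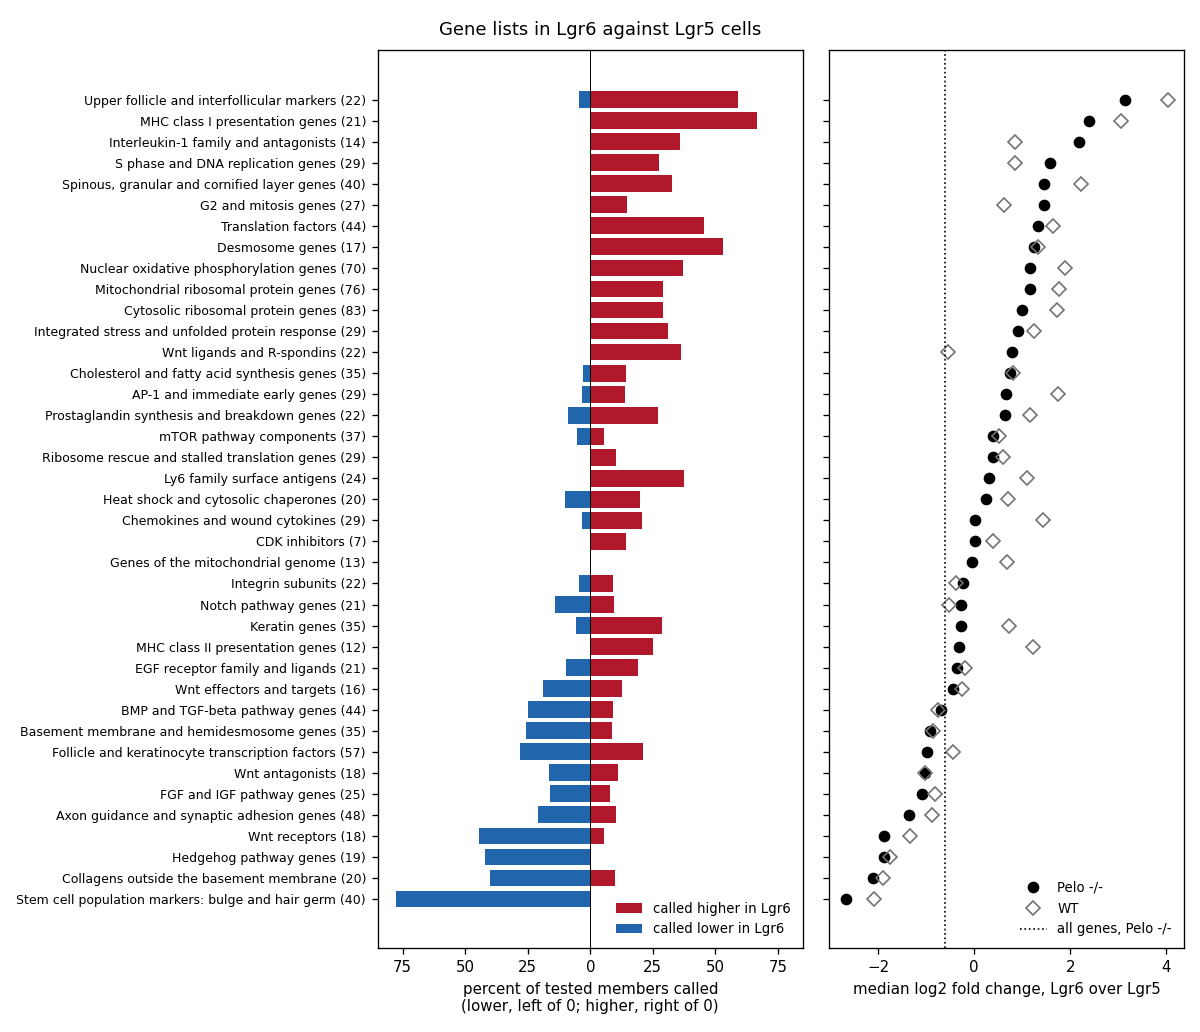
Left, the percent of tested members of each gene list called higher (red, right of 0) or lower (blue, left of 0) in Pelo -/- Lgr6 cells, with the number tested in brackets. Right, the median log2 fold change of Lgr6 over Lgr5 in Pelo -/- cells (filled circles) and in WT cells (open diamonds), with the dotted line at -0.61, the median of all genes in Pelo -/- cells. Bulge and hair germ markers, collagens, Hedgehog genes and Wnt receptors lie at the lower end and upper follicle markers and MHC class I genes at the upper end.

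Most genes of the MHC class I pathway, which presents antigen, rose in Lgr6 cells. Of 21 MHC class I genes 14 were called higher and 0 lower, with a median of 2.39, and the count stayed at 14 or 15 without any single library. H2-D1 stood at 1416, 2324 and 2076 CPM in Lgr6 cells, against 276, 225 and 233 CPM in Lgr5 cells (log2 fold change 2.99 ± 0.36, edgeR adjusted p = 4.31e-06). H2-Q6 and H2-Q7 had 5.40 and 4.65, and H2-T10 had 3.74. Genes of this family have close copies with which reads can be shared. Of 12 MHC class II genes 3 were called higher and 0 lower. Their median was -0.32, and it was positive without replicate 1 of Lgr6 cells (0.048), without replicate 2 of Lgr5 cells (0.72), in the fit of the 6 libraries alone (0.46) and with a minimum mean of 5 CPM (4.76). Cd74, the invariant chain, stood at 32.4, 38.5 and 35.2 CPM in Lgr6 cells, against 0.528, 0.709 and 0.268 CPM in Lgr5 cells (log2 fold change 6.14 ± 0.60, edgeR adjusted p = 2.57e-07), and H2-Aa averaged 16.6 ± 5.92 CPM in Lgr6 cells and 0.409 ± 0.206 CPM in Lgr5 cells (log2 fold change 5.33 ± 0.76, edgeR adjusted p = 3.43e-05). Ly6 family genes were called higher in 9 of 24 cases and lower in 0, with a median of 0.31 that was -0.19 without replicate 1 of Lgr6 cells, and positive but over 1.5 times away without replicate 3 of Lgr6 cells (0.50) or replicate 2 (0.61) or 3 (0.77) of Lgr5 cells. Lypd3 averaged 198 ± 36.8 CPM in Lgr6 cells and 22.3 ± 11.6 CPM in Lgr5 cells (log2 fold change 3.15 ± 0.48, edgeR adjusted p = 7.54e-05), and Ly6c1, which has close copies, had 4.30.

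Interleukin 1 family genes were called higher in 5 of 14 cases and lower in 0 (median 2.19). Il1rn, the receptor antagonist, stood at 554, 249.5 and 507 CPM in Lgr6 cells, against 4.52, 1.84 and 3.92 CPM in Lgr5 cells (log2 fold change 6.99 ± 0.66, edgeR adjusted p = 2.53e-07). Il1rl2, the receptor of interleukin 36, averaged 170.3 ± 22 CPM in Lgr6 cells and 40.9 ± 20.2 CPM in Lgr5 cells (log2 fold change 2.06 ± 0.42, edgeR adjusted p = 0.00157), and the shared co-receptor Il1rap had 1.78 (edgeR adjusted p = 0.00691). Of 29 chemokine and wound genes 6 were called higher and 1 lower, or 2 lower without replicate 3 of Lgr5 cells. Krt16, a keratin of stressed epidermis, stood at 176, 87.9 and 72.4 CPM in Lgr6 cells, against 0.235, 0.142 and 1.88 CPM in Lgr5 cells (log2 fold change 7.17 ± 1.16, edgeR adjusted p = 0.000561). Cxcl16 averaged 90.0 ± 13.8 CPM in Lgr6 cells and 21.1 ± 18.8 CPM in Lgr5 cells (log2 fold change 2.09 ± 0.47, edgeR adjusted p = 0.00404), and Cxcl12, the ligand of Cxcr4, averaged 10.2 ± 9.76 CPM in Lgr6 cells and 144 ± 75.3 CPM in Lgr5 cells (log2 fold change -3.82 ± 0.77, edgeR adjusted p = 0.00221). Stfa1, a stefin with close copies, had 2 counts in all Lgr5 libraries, which gives a ratio of pooled rates of 1310 with an exact 95% interval of 363 to 10900. In prostaglandin metabolism 6 of 22 genes were called higher and 2 lower. Beside Ptgs1, the synthases Hpgds and Ptges had 6.36 and 4.04 (edgeR adjusted p = 1.23e-05 and 0.000119). Hpgd, which breaks prostaglandins down, stood at 19.9, 19.6 and 4.51 CPM in Lgr6 cells, against 227, 246 and 371 CPM in Lgr5 cells (log2 fold change -4.26 ± 0.53, edgeR adjusted p = 6.33e-06). Ptgr1, which also breaks prostaglandins down, and the transporter Slco2a1 were on the other side, at 1.96 and 1.19, both chosen after their values were seen. Ptgds, a prostaglandin D synthase, stood at 0.117, 0 and 0.0531 CPM in Lgr6 cells, against 26.5, 0.425 and 1.61 CPM in Lgr5 cells. Its difference rested on replicate 1 of Lgr5 cells, and the call was lost without that library.

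Of 29 genes of ribosome rescue, the process in which Pelo acts, 3 were called higher and 0 lower. That is 10.3% called, close to the 9.95% over all genes tested. The median was 0.38, or 0.19 without replicate 3 of Lgr6 cells and -0.17 with a minimum mean of 5 CPM, and without replicate 1 of Lgr5 cells 5 were called. Wdr61, a subunit of the Ski complex that feeds messenger RNA to the exosome, stood at 571, 334 and 662 CPM in Lgr6 cells, against 98.5, 71.8 and 32.4 CPM in Lgr5 cells (log2 fold change 2.95 ± 0.51, edgeR adjusted p = 0.000362). Rack1, a ribosomal scaffold read when ribosomes collide, averaged 1969 ± 515 CPM in Lgr6 cells and 544 ± 253 CPM in Lgr5 cells (log2 fold change 1.85 ± 0.39, edgeR adjusted p = 0.00239), and Eif4e2, a cap-binding protein that blocks initiation on faulty messages, averaged 114 ± 18.1 CPM in Lgr6 cells and 25.4 ± 11.3 CPM in Lgr5 cells (log2 fold change 2.17 ± 0.47, edgeR adjusted p = 0.00273). Hbs1l, given as the partner of Pelo and not by the naming rule, averaged 45.1 ± 17.2 CPM in Lgr6 cells and 54.6 ± 4.87 CPM in Lgr5 cells (log2 fold change -0.28 ± 0.40, edgeR adjusted p = 0.666).

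Some genes of the translation machinery rose in Lgr6 cells, and the number called for the cytosolic ribosome moved with single libraries of both populations. For proteins of the cytosolic ribosome 24 of 83 genes were called higher and 0 lower (median 1.01, or 1.60 without replicate 1 of Lgr5 cells). Their mean log2(CPM + 0.5) was 8.08, 8.24 and 7.82 in Lgr6 cells, against 7.76, 6.80 and 6.32 in Lgr5 cells. The value of replicate 1 of Lgr5 cells was close to that of the Lgr6 libraries. Without that library 50 were called higher. The count was 7 without replicate 2 or 3 of Lgr5 cells, 14 and 9 without replicate 1 and 2 of Lgr6 cells, and 10 in a fit of the 6 libraries alone. Rplp0, a stalk protein, stood at 1507, 2002 and 1489 CPM in Lgr6 cells, against 484, 218 and 225 CPM in Lgr5 cells (log2 fold change 2.43 ± 0.47, edgeR adjusted p = 0.000999). Rpl3, a core protein of the large subunit, averaged 753 ± 25.4 CPM in Lgr6 cells and 187 ± 77.8 CPM in Lgr5 cells (log2 fold change 2.01 ± 0.38, edgeR adjusted p = 0.000878). Translation factors were called higher in 20 of 44 cases and lower in 0 (median 1.33). Eef2, the elongation factor that moves the ribosome along the message, stood at 604, 1015 and 846 CPM in Lgr6 cells, against 134, 124 and 102 CPM in Lgr5 cells (log2 fold change 2.77 ± 0.42, edgeR adjusted p = 6.68e-05). Eef1a1, which delivers transfer RNA, averaged 6757 ± 838 CPM in Lgr6 cells and 1435 ± 622 CPM in Lgr5 cells (log2 fold change 2.23 ± 0.38, edgeR adjusted p = 0.000282), and Eif6, which keeps subunits apart, had 2.21 (edgeR adjusted p = 0.000407). Ribosomal protein genes and Eef1a1 have many processed pseudogenes of like sequence, so reads can be shared with them and single values are uncertain.

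Nuclear genes of oxidative phosphorylation were called higher in 26 of 70 cases and lower in 0 (median 1.17). Uqcrc1, a core subunit of complex III, stood at 90.8, 100.4 and 110.0 CPM in Lgr6 cells, against 9.04, 8.15 and 2.47 CPM in Lgr5 cells (log2 fold change 3.94 ± 0.59, edgeR adjusted p = 7.54e-05), and Ndufa8, of complex I, averaged 73.7 ± 5.6 CPM in Lgr6 cells and 12.8 ± 5.58 CPM in Lgr5 cells (log2 fold change 2.52 ± 0.41, edgeR adjusted p = 0.000162). The count was 40 without replicate 1, 13 without replicate 2 and 13 without replicate 3 of Lgr5 cells, and 16 without replicate 1 of Lgr6 cells. Mitochondrial ribosomal protein genes were called higher in 22 of 76 cases and lower in 0 (median 1.16), with Mrpl46 at 89.5, 73 and 68.4 CPM in Lgr6 cells, against 2.58, 7.52 and 7.62 CPM in Lgr5 cells (log2 fold change 3.70 ± 0.64, edgeR adjusted p = 0.000389). That count was 12 and 11 without replicate 1 and 3 of Lgr6 cells, and 10 and 12 without replicate 2 and 3 of Lgr5 cells. Of the 13 genes of the mitochondrial genome edgeR called 0 and DESeq2 called 1 lower, while edgeR called 1 higher without replicate 1 and 1 lower without replicate 3 of Lgr5 cells. The smallest p among them was that of mt-Nd3, at 160.1, 134 and 132 CPM in Lgr6 cells, against 597, 195 and 171 CPM in Lgr5 cells (log2 fold change -1.18 ± 0.45, edgeR adjusted p = 0.0976), where replicate 1 of Lgr5 cells stood apart.

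A part of the genes of cell division rose in Lgr6 cells. For S phase and DNA replication 8 of 29 were called higher and 0 lower (median 1.57), and for G2 and mitosis 4 of 27 and 0 (median 1.45). The shares called were 27.6% and 14.8%, against 9.95% over all genes tested, and the second is near that share. Gins2, a subunit of the replicative helicase, stood at 27, 44.2 and 41.7 CPM in Lgr6 cells, against 3.05, 1.35 and 1.24 CPM in Lgr5 cells (log2 fold change 4.32 ± 0.54, edgeR adjusted p = 6.33e-06). Mcm5, of the same helicase, stood at 101, 80.0 and 57.5 CPM in Lgr6 cells, against 8.33, 8.79 and 2.47 CPM in Lgr5 cells (log2 fold change 3.60 ± 0.60, edgeR adjusted p = 0.000199). Aurka, a mitotic kinase, stood at 20.8, 14 and 7.7 CPM in Lgr6 cells, against 2.52, 0.922 and 1.02 CPM in Lgr5 cells (log2 fold change 3.24 ± 0.80, edgeR adjusted p = 0.00895). The mean log2(CPM + 0.5) of the G2 and mitosis list was 4.46, 4.57 and 3.94 in Lgr6 cells, against 3.69, 2.22 and 2.06 in Lgr5 cells, with replicate 1 of Lgr5 cells nearest to the Lgr6 libraries. Without that library 12 and 11 genes of the 2 lists were called. Without replicate 2 or 3 of Lgr5 cells 4 and 2 were called, without replicate 1 or 2 of Lgr6 cells 5 and 2. Cdkn1a, which encodes the inhibitor p21 of cyclin-dependent kinases, was also higher, at 161, 173 and 148 CPM in Lgr6 cells, against 15.4, 8.72 and 9.72 CPM in Lgr5 cells (log2 fold change 3.83 ± 0.51, edgeR adjusted p = 1.41e-05). It was the member called among 7 CDK inhibitors, or 1 of 2 without replicate 1 of Lgr5 cells.

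Of 29 genes of the integrated stress and unfolded protein responses 9 were called higher and 0 lower (median 0.91), and 5 without replicate 1, 2 or 3 of Lgr6 cells or replicate 2 or 3 of Lgr5 cells. Sdf2l1, a chaperone cofactor of the endoplasmic reticulum, stood at 8.84, 10.3 and 14.9 CPM in Lgr6 cells, against 0.235, 0.284 and 0.215 CPM in Lgr5 cells (log2 fold change 5.50 ± 0.89, edgeR adjusted p = 0.000155). Psat1, of serine synthesis, averaged 171 ± 26.7 CPM in Lgr6 cells and 11.7 ± 15 CPM in Lgr5 cells (log2 fold change 3.88 ± 0.67, edgeR adjusted p = 0.000569), and Herpud1, of protein breakdown at the reticulum, averaged 170.3 ± 51.1 CPM in Lgr6 cells and 31.2 ± 17.6 CPM in Lgr5 cells (log2 fold change 2.45 ± 0.47, edgeR adjusted p = 0.00092). Heat shock genes went both ways, with 4 of 20 called higher and 2 lower, or 30.0% called. Without replicate 1 or 2 of Lgr6 cells or replicate 2 or 3 of Lgr5 cells 1 or 2 were called higher. Hsp90ab1, a constitutive chaperone, averaged 2254 ± 608 CPM in Lgr6 cells and 281 ± 126 CPM in Lgr5 cells (log2 fold change 3.00 ± 0.44, edgeR adjusted p = 5.46e-05), and the inducible Hspa1b, whose neighbour Hspa1a is near-identical, averaged 179 ± 35.5 CPM in Lgr6 cells and 653 ± 182 CPM in Lgr5 cells (log2 fold change -1.87 ± 0.36, edgeR adjusted p = 0.000939). Of 37 mTOR pathway components 2 were called higher and 2 lower, or 10.8%, close to the 9.95% over all genes tested. Without any single library other than replicate 1 of Lgr5 cells 0 or 1 was called in each direction. Of 35 genes of cholesterol and fatty acid synthesis 5 were called higher and 1 lower, or 17.1%, against 9.95% over all genes tested. The counts were 8 higher without replicate 1 of Lgr5 cells and 0 lower without replicate 1 or 2 of Lgr6 cells. Hmgcs1, of the sterol pathway, had 2.13 (edgeR adjusted p = 0.000506).

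AP-1 and immediate early genes, which respond quickly to stimuli, were called higher in 4 of 29 cases and lower in 1. That is 17.2% called, against 9.95% over all genes tested. The median of the list was 0.66, or 1.34 without replicate 1 and 0.38 without replicate 3 of Lgr5 cells, 1.13 with limma-voom and 0.43 with a minimum mean of 5 CPM. Fosl1, a subunit of AP-1, stood at 18.5, 14.6 and 26.1 CPM in Lgr6 cells, against 0.293, 0.567 and 1.02 CPM in Lgr5 cells (log2 fold change 4.95 ± 0.81, edgeR adjusted p = 0.00016), and Klf6 averaged 455 ± 25.9 CPM in Lgr6 cells and 169 ± 31.6 CPM in Lgr5 cells (log2 fold change 1.43 ± 0.34, edgeR adjusted p = 0.0072). Cebpd was the member called lower, at -3.38 (edgeR adjusted p = 0.000898). The mean log2(CPM + 0.5) of the list was 6.29, 6.28 and 6.33 in Lgr6 cells, against 6.13, 5.61 and 4.82 in Lgr5 cells, so the Lgr5 libraries were spread over more than a whole log2 unit. Without replicate 1 of Lgr5 cells 7 were called higher, and without replicate 2 or 3 of them 2.

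**Figure D3:**
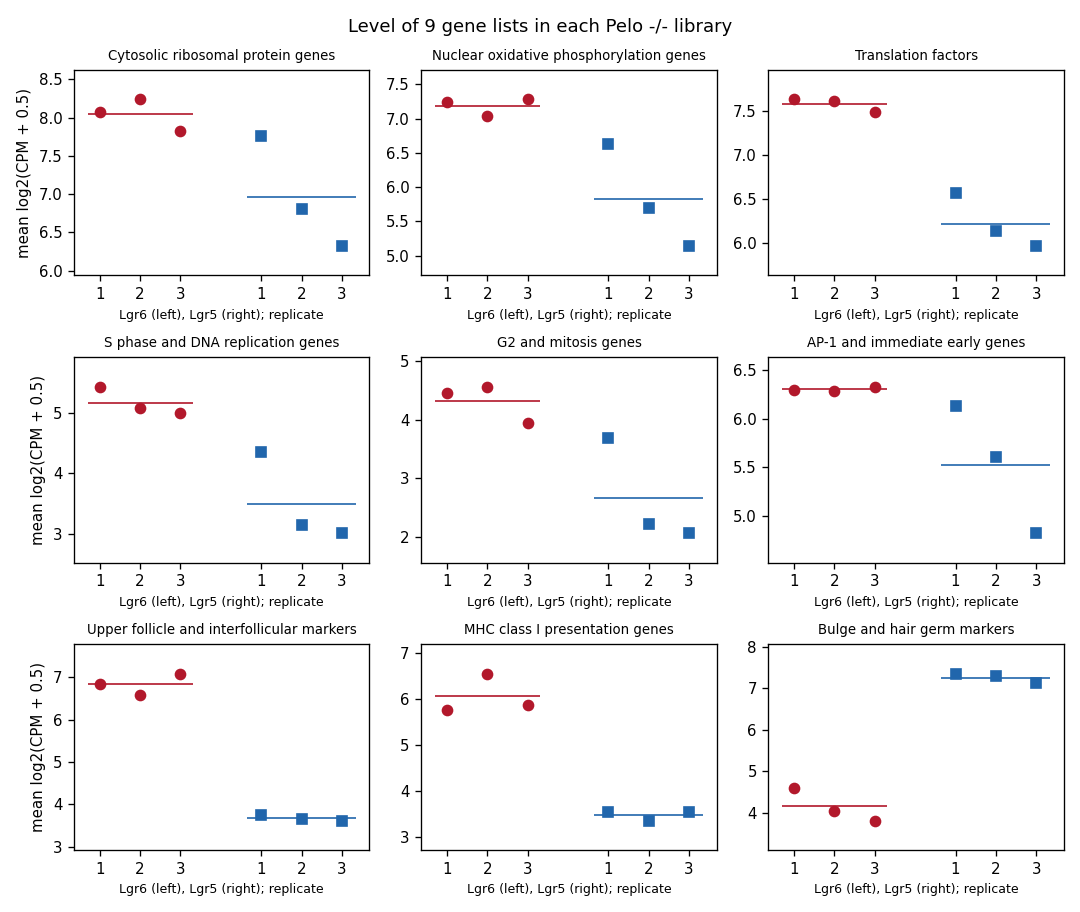
Mean log2(CPM + 0.5) of the members of 9 gene lists (y axis) in each library, with the 3 Pelo -/- Lgr6 replicates in red at the left of each panel, the 3 Pelo -/- Lgr5 replicates in blue at the right and group means as lines. Replicate 1 of Lgr5 cells lies nearest to the Lgr6 libraries for the ribosomal, oxidative phosphorylation, division and AP-1 lists, while the upper follicle, MHC class I and bulge lists in the bottom row have groups that are far apart.

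Markers of other cells that the sort could hold were read over whole lists. Keratinocyte markers summed to 39400 to 42100 CPM in Lgr6 cells and 12900 to 19300 CPM in Lgr5 cells, with 0 of 12 at 0 in either population. Keratinocytes are the main cells of the labelled tissue, epidermis. Melanocyte markers summed to 13.2 to 34.8 CPM in Lgr6 cells and 150.0 to 342 CPM in Lgr5 cells, with 4 of 12 called lower (median -3.05). Mlana, a melanosome protein, was at 0 in all Lgr6 libraries and at 0.142 to 8.33 CPM in Lgr5 cells, at least 52.5-fold lower against a floor of 3 counts over the group, most of its level coming from replicate 1. That call was lost without any single Lgr6 library or without replicate 1 of Lgr5 cells. Mitf, the master regulator of pigment cells, averaged 13.8 ± 8.15 CPM in Lgr6 cells and 96 ± 28.9 CPM in Lgr5 cells (log2 fold change -2.80 ± 0.46, edgeR adjusted p = 0.000172), and Tyrp1, a pigment enzyme, stood at 0, 0.188 and 0.0531 CPM in Lgr6 cells, against 26.6, 8.86 and 8.7 CPM in Lgr5 cells (log2 fold change -7.42 ± 1.48, edgeR adjusted p = 0.00135), while its log2 fold change in WT cells was 0.43. Without replicate 2 or 3 of Lgr6 cells 2 of these markers were called. Over the whole melanocyte list, 10 of 12 markers were lower in value in WT Lgr6 cells and 2 higher, with a median of -1.55. In WT cells 1 was called lower, and the difference between genotypes was called for 0 members. Sebocyte markers summed to 389 to 895 CPM in Lgr6 cells and 115 to 186 CPM in Lgr5 cells, with 3 of 12 called higher, or 1 without replicate 3 of Lgr6 cells or replicate 2 of Lgr5 cells. Scd1, a desaturase abundant in sebocytes, averaged 186 ± 43.7 CPM in Lgr6 cells and 26.8 ± 14.2 CPM in Lgr5 cells (log2 fold change 2.80 ± 0.43, edgeR adjusted p = 8.22e-05).

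The remaining lists summed to at most 143 CPM in any library. In Lgr6 cells the sums of T cell markers and of Langerhans cell and macrophage markers exceeded the melanocyte sums above. Dermal fibroblast and papilla markers summed to 34.2 to 45.9 CPM in Lgr6 cells and 87.6 to 117 CPM in Lgr5 cells, with 1 of 13 called higher (Thy1, 3.88, which is on the T cell list too) and 2 lower (Col1a2, -5.82, and Fbln1, -3.14). Endothelial markers summed to 5.04 to 10.2 CPM in Lgr6 cells and 15.8 to 21.2 CPM in Lgr5 cells, and Merkel cell and neural markers to 3.98 to 10.1 CPM in Lgr6 cells and 10.1 to 28.9 CPM in Lgr5 cells, with Piezo2, a mechanosensitive channel, called lower (-3.03) and the call lost without any single Lgr6 library or replicate 2 of Lgr5 cells. T cell markers summed to 56.9 to 98.5 CPM in Lgr6 cells and 14.7 to 82.9 CPM in Lgr5 cells. Langerhans cell and macrophage markers summed to 122 to 134 CPM in Lgr6 cells and 71.9 to 143 CPM in Lgr5 cells, so those groups overlapped, and blood and muscle markers reached 22.2 CPM in Lgr6 cells and 10.6 CPM in Lgr5 cells. Of these 9 lists the melanocyte one alone had a member at 0 in a whole group. The part of these cells in the differences of pigment, matrix, lipid and antigen-presentation genes was not tested.

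**Figure D4:**
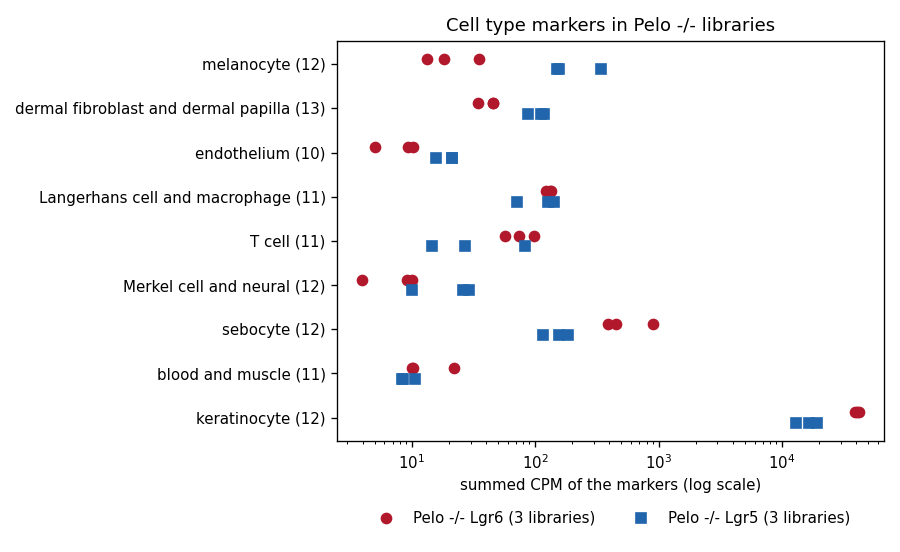
Summed CPM of the markers of 9 cell types (log x axis, number of markers tested in brackets), with 1 point per library, Pelo -/- Lgr6 as circles above Pelo -/- Lgr5 as squares. Keratinocyte and sebocyte sums are higher in all Lgr6 libraries, melanocyte, fibroblast and endothelial sums are higher in all Lgr5 libraries, and Langerhans cell sums overlap.

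The same contrast in WT cells, which shares no library with that in Pelo -/- cells, called 3713 genes (12.2%), of which 3236 were higher in WT Lgr6 cells (10.6%) and 477 lower (1.57%). The genes called the same way in both genotypes numbered 2108, which is 69.7% of the Pelo -/- calls and 56.8% of the WT calls, and 0 were called in opposite ways. Of the genes higher in Pelo -/- Lgr6 cells 82.6% were also called higher in WT Lgr6 cells, and of the genes lower in Pelo -/- Lgr6 cells 35.4% were also called lower in WT. Seen from the WT side the shares were 56.1% and 61.4%. The number called lower in WT Lgr6 cells depended on the fit, and these shares hold for the fit as reported. It was 979 with size factors of DESeq2 in place of TMM and 1722 with a minimum mean of 5 CPM. DESeq2 called 3219 lower in WT Lgr6 cells, and the fit with a replicate block called 421. The 918 genes called in Pelo -/- cells and not in WT cells held 535 lower and 383 higher ones, and 857 of them had the same sign in WT cells. The 1605 genes called in WT cells and not in Pelo -/- cells had the same sign in 1545 cases.

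A call in a single genotype does not show a difference between genotypes, and the test of that difference called 0 genes in edgeR (0.0%), with 1454 at an unadjusted p under 0.05 and a smallest adjusted p of 0.159. DESeq2 called 56, of which 26 were more positive in Pelo -/- cells and 30 more negative, limma-voom called 0, and edgeR with no filter on low counts called 28. Leaving out single libraries called at most 3 genes, those being Gm14287, Gm14038 and Gm4202 without replicate 1 of Pelo -/- Lgr5 cells. The others were Rab32 without replicate 2 and Egr2 without replicate 3 of Pelo -/- Lgr5 cells, Atp6v0c-ps2 without replicate 1 and Defb6 without replicate 3 of WT Lgr5 cells, all named after their values were seen. For 4 markers of the populations the fold changes had the same sign in both genotypes. Lgr5 was used for the sort in both, so its sign was given by the design. The others were named by their values in Pelo -/- cells. Lgr5 had -9.30 in Pelo -/- cells and -5.49 in WT cells, Lhx2 -4.97 and -4.15, Krt14 4.01 and 4.48, and Ly6a 9.62 and 10.06. Bulge and hair germ markers were called lower in 31 of 40 cases in Pelo -/- cells and 25 in WT cells, 25 of them in both.

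The genes with the smallest p for the difference are given as values. In the direction of a larger excess in Pelo -/- Lgr6 cells these were Gpt, an alanine aminotransferase (4.37 in Pelo -/- cells and 1.42 in WT cells), Lrrc8b, a subunit of volume-regulated anion channels (5.75 and 2.08), and Vav3 (4.59 and 2.06). In the other direction they were Tm4sf1, a tetraspanin-like membrane protein (0.66 and 5.24), Clic3, an intracellular chloride channel protein (1.51 and 5.26), and the immediate early factor Egr2 (0.40 and 5.36). Egr2 stood at 25.2, 26.8 and 25.5 CPM in Lgr6 cells, against 43, 14.7 and 0.859 CPM in Lgr5 cells, with a wide range among the Lgr5 libraries. None passed adjustment in edgeR with all libraries, and Egr2 passed without replicate 3 of Pelo -/- Lgr5 cells (edgeR adjusted p = 0.00203).

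Some lists had unlike counts in the genotypes. Genes of the cytosolic ribosome were called higher in 24 of 83 cases in Pelo -/- cells and 63 in WT cells, nuclear oxidative phosphorylation genes in 26 of 70 cases and 48, and mitochondrial ribosomal protein genes in 22 of 76 cases and 40. AP-1 and immediate early genes were called higher in 4 of 29 cases in Pelo -/- cells and 16 in WT cells. Without replicate 1 of Pelo -/- Lgr5 cells the Pelo -/- counts were 50, 40, 28 and 7 in the same order. They were 7, 13, 10 and 2 without replicate 2, and 7, 13, 12 and 2 without replicate 3 of those cells. WT counts of these lists were not taken without single libraries. The unadjusted p of the difference was under 0.05 for 14 of the cytosolic ribosomal, 11 of the oxidative phosphorylation, 10 of the mitochondrial ribosomal and 6 of the AP-1 genes, and edgeR called 0 of them. Over all 30405 genes tested, 1454 were under that p. For S phase genes the counts were 8 of 29 in Pelo -/- cells and 4 in WT cells, and for G2 and mitosis genes 4 of 27 and 3, with 0 members under that p in either list. Hedgehog genes were called lower in 8 of 19 cases in Pelo -/- cells and 7 in WT cells, and MHC class I genes higher in 14 of 21 and 16.

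**Figure D5:**
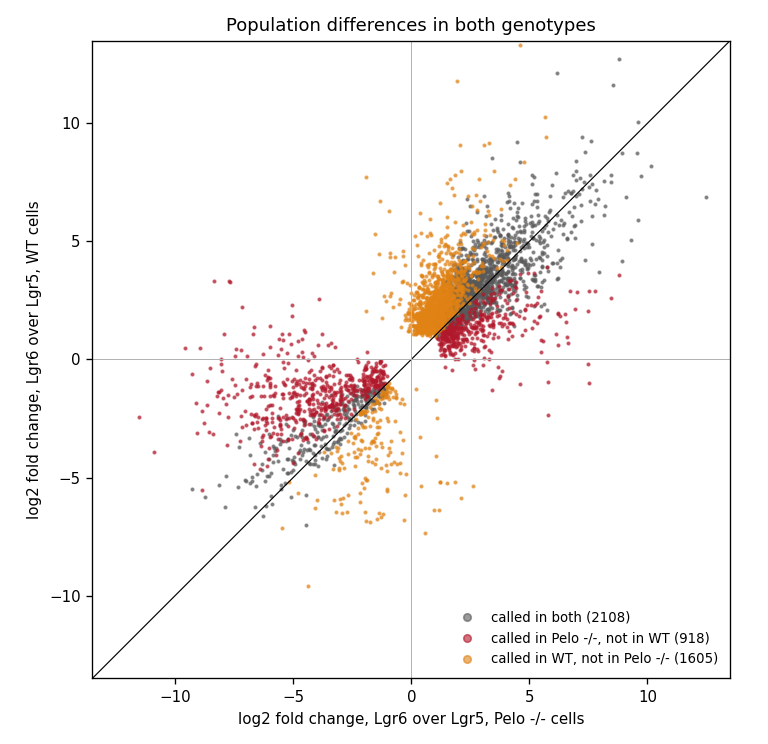
Log2 fold change of Lgr6 over Lgr5 in Pelo -/- cells (x axis) and in WT cells (y axis) for every gene called in either genotype, 1 point per gene, with the line of equal values. The 2108 genes called in both lie in the quadrants of equal sign, and the 918 called in Pelo -/- cells and not in WT cells (red) include 535 at the left of 0. The 1605 called in WT cells and not in Pelo -/- cells (orange) lie mostly at the upper right.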

How the data were processed

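RNA was sequenced from 1000 sorted epidermal cells per library. The authors deposited a table of raw counts per Ensembl gene identifier for 17 libraries, made with STAR and edgeR on GRCm38 and mm10 per the submitters' processing notes, without versions; no source used here gives the counting rules or the use of strand. Of 48820 identifiers 40692 matched GENCODE M21 with their version and 48144 without it, and the 676 unmatched ones held 0.110% to 0.157% of counts. Libraries were grouped by their titles. edgeR 4.0.16 in R 4.3.3 was run with TMM scaling, a minimum count of 10 and total of 15 (filterByExpr), and a robust quasi-likelihood fit with 1 coefficient per group over all 17 libraries, which share 1 estimate of the spread (common dispersion 0.537). Contrasts were Lgr6 minus Lgr5 in Pelo -/- cells, the same in WT cells, and the difference of both. The scripts were tested on simulated counts. Alternatives used DESeq2 1.42.0 and limma 3.58.1, other filters, a replicate block and single libraries left out.

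Named genes were Pelo, Itga1, Lgr5, Lgr6 and Lrig1, the 12 protein-coding genes per direction with the largest called folds (mean log2 CPM of at least 3, groups apart), up to 4 called members per list and direction by smallest p (2 where 0 were called), 3 genes per direction for the difference, and list transcription factors called in both genotypes. The genes and the 48 lists were chosen with earlier results of these data known. Replicate numbers did not pair libraries. Exact 95% intervals cover counting error only, and precision otherwise rests on 3 libraries per group. The least different pair of libraries in a Pelo -/- group differed by far more than sampling noise (chi-square per degree of freedom 51.1). The libraries are thus not copies of each other, and each was treated as 1 replicate. This check cannot show whether they come from separate animals.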

Additional observations from a re-analysis of the deposited data

How the results depend on the processing

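Leaving out 1 library at a time gave 1477 to 2521 genes called higher (2198 as reported), 410 to 875 lower without a Pelo -/- library and up to 906 without a WT library (828), 1431 to 2275 called the same way in WT cells (2108) and 0 to 3 for the difference between genotypes (0). Genes called lower numbered 1540 with a minimum mean of 5 CPM, 2522 with DESeq2 and 1954 with limma-voom and library weights. DESeq2 called 3204 genes the same way in both genotypes. The difference called 28 genes with no filter on low counts and 56 with DESeq2. With the replicate block 2205 genes were called higher and 686 lower, 2097 the same way in WT cells and 0 for the difference. Deviations of libraries with the same replicate number correlated at 0.0335, -0.0905 and -0.0633, so the numbers, which come from different mouse lines, do not pair them. Fold changes of 0 calls changed sign in any alternative. Of the 209 named genes that were called, 170 kept the call throughout. Of the 48 list medians 39 moved in at least 1 alternative by more than the spread between libraries, taken as the SD of the list's mean log2(CPM + 0.5) with both groups added in squares. Setting members at 0 in 1 group to their bound of 3 counts left the medians of the 3 lists that held them unchanged. The median of chemokine and wound genes, with 1 member at or under that floor in both groups, shifted by 0.12. The cause of these changes was not tested. With a minimum mean of 5 CPM the median was 2.69 for differentiating layers, -3.38 for collagens, -0.83 for axon guidance, -6.20 for melanocyte markers, 0.40 for the stress responses, 0.80 for translation factors, 0.63 for cytosolic and 0.70 for mitochondrial ribosomal proteins and 0.66 for oxidative phosphorylation.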
